A study of Mus musculus with 88 samples.

Results

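The response of RAW 264.7 cells to 4 h of lipopolysaccharide (LPS) was measured on 6 of the 88 arrays of the series, which form 3 of its 44 dye-swap sets. RAW 264.7 is a mouse macrophage-like line transformed with Abelson leukaemia virus, so the results describe 1 transformed line. The treated cells received 100 ng/ml LPS together with 100 pM lipid binding protein, a serum protein that carries LPS to its receptor. Their RNA shared each 2-colour oligonucleotide array with RNA from untreated cells left equally long in medium. The arrays were those whose channel labels name this treatment, the first array of a set having the treated RNA in Cy5 and the second in Cy3. The same treatment at 2 h and at 1 h, with 6 arrays each, served for the comparison over time. The other arrays of the series, with isoproterenol, prostaglandin E2 or their combinations with LPS, entered here only through the shared estimate of spread. Nothing in the labels ties the 3 sets to separate cultures, and a p-value here weighs a difference against set-to-set spread that may be technical.

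All values below are log2 ratios of LPS over medium after averaging the 2 arrays of a set. They are given as the mean ± SD over 3 sets, so that 1 is a 2-fold higher and −1 a 2-fold lower level. The direction is likely rather than stated: the sources used here do not say which dye is the numerator, and it was read as Cy5 over Cy3. Read that way, the median of 13 measured NF-kB subunits and feedback inhibitors, known LPS targets, lay between 1.35 and 1.82 on the 6 arrays. Of all probes, 26.1 to 39.9% were listed at exactly 0 on these arrays, with the highest shares on both arrays of set 1 (39.9 and 34.4%). No source used here says what a 0 stands for. Zeros pull an average toward 0, and 566 genes had a probe at 0 on all 6 arrays beside a probe with values. Dye-swapped arrays correlated across probes at r of 0.65, 0.74 and 0.77 in sets 1 to 3, and set means across genes at 0.86 to 0.92. Genes are not independent replicates in these correlations. Of 16 macrophage markers in the table, 13 had a value other than 0 on all 6 arrays, among them Csf1r, Adgre1, Cd68 and Spi1, and Lyz2 was at 0 on all 6. Of 37 markers of T cells, B cells, dendritic cells, neutrophils, fibroblasts, epithelial and endothelial cells, 13 had such values and 8 were at 0 on all 6: Cd3d, Cd3e, Cd8a, Camp, Pdgfra, Krt8, Krt18 and Cdh1. The 13 of other cell types included 5 of 7 neutrophil markers, Ly6g, Mpo, Elane, S100a8 and Ltf. On average neutrophil markers had a value on 81.0% of the 6 arrays, dendritic cell markers on 83.3% and macrophage markers on 90.6%. A ratio other than 0 does not by itself show that a gene is expressed. Among the 29 of the 37 with any value, 5 passed the test and were higher (17.2%, against 16.2% of all measured genes). They were Kdr at 2.22, Blnk at 1.5, Xcr1 at 0.62, Cd2 at 0.21 and Ly6g at 0.15. The call of Cd2 was lost without any 1 of the 3 sets, that of Ly6g without set 2 and without set 3, and that of Xcr1 without set 2. Arrays of bulk RNA cannot tell fewer cells of a type from less RNA per cell.

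LPS is sensed by Toll-like receptor 4 with its partners MD-2 and CD14. The adaptors MyD88 and TRIF then relay the signal to NF-kB and MAP kinases, and to the factor IRF3, which switches on the interferon beta gene. Interferon beta is secreted and acts back on the same cells through its receptor, JAK kinases and a complex that includes STAT2 and IRF9. It binds the interferon-stimulated response element (ISRE) in front of antiviral genes, in a later wave than the direct NF-kB targets. Macrophages exposed to LPS are also known to stop dividing, and E2F factors drive the genes of DNA replication.

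The stretches before the gene starts show where these 3 kinds of element lie, so they were searched in the 250 bases before each start in the RefSeq promoter table (GRCm38.p6). Windows were found for 8381 of the 10518 genes tested, 10585 windows in all, and a gene counted where any of its windows held a match. The ISRE core was spelled GAAANNGAAA, and the E2F site TTTGGCGC, TTTCGCGC or TTTCCCGC. NF-kB was searched by its named 10-letter consensus. Both strands were read, and overlapping matches each counted. An ISRE core stood before 3.46% of all genes tested, 5.95% of those called higher at 4 h and 2.59% of those called lower. It stood before 18 of 102 genes (17.6%) that were called and at least 4-fold higher. In the interferon effector list described below it stood before 13 of 29 members with a window (44.8%). The NF-kB consensus stood before 5.3% of all genes, 7.12% of those called higher, 5.04% of those called lower, and 6 of 11 members of the NF-kB list (54.5%). An E2F site stood before 2.73% of all genes, 2.43% of those called higher, 5.11% of those called lower, and 8 of 39 replication genes (20.5%). Of the other cell cycle lists described below, G1 control had one before 6 of 25 genes (24%) and mitosis before 1 of 27 (3.7%). A match is a description of letters and not a site of binding, and no match says only that these letters are not in the window. The following stretches are those of 6 of the 13 interferon effectors with a match, of 2 NF-kB feedback inhibitors and of 2 replication genes. Within each list these stretches are ordered by the size of the log2 ratio, largest first. They are examples and not a full ranking of the members with a match. Each runs 5′ to 3′ on the strand of its gene and ends before the start, with the matches in capitals. The first, before the guanylate-binding protein gene Gbp2, lies at chr3:142620559-142620658 (plus strand) and holds 1 ISRE core. Those of the antiviral gene Ifit3 at chr19:34583328-34583461 (plus strand) and of Gbp3 at chr3:142559954-142560043 (plus strand) hold 2 each. That of Isg15, which encodes a ubiquitin-like protein, lies at chr4:156200830-156200941 (minus strand) and holds 3. Those of the immunity-related GTPases Irgm2, at chr11:58214868-58214967 (plus strand), and Tgtp1, at chr11:48992269-48992368 (minus strand), hold 1 each. The NF-kB matches are before Tnfaip3, which encodes the ubiquitin editor A20, at chr10:19015411-19015580 (minus strand), and before Nfkbia, the inhibitor IkB-alpha, at chr12:55492648-55492721 (minus strand). The E2F matches are before Cdc6, a loader of the replicative helicase, at chr11:98907968-98908065 (plus strand), and before the helicase subunit Mcm6, at chr1:128359706-128359860 (minus strand).
Gbp2: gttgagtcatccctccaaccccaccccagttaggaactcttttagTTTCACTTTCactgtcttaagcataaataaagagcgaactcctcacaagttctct
Ifit3: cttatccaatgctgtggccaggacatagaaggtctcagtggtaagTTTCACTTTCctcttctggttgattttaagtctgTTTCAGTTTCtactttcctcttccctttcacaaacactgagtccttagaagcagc
Gbp3: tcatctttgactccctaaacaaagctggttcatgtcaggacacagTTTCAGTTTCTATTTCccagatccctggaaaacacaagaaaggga
Isg15: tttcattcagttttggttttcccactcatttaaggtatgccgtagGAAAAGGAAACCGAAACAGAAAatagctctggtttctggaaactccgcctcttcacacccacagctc
Irgm2: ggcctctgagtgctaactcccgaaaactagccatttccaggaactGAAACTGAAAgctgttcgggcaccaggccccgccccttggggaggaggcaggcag
Tgtp1: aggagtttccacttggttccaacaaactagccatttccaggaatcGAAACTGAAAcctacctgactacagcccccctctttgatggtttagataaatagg
Tnfaip3: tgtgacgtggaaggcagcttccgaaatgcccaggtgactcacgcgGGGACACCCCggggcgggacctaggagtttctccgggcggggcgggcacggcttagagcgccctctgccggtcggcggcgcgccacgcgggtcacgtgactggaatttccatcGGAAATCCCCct
Nfkbia: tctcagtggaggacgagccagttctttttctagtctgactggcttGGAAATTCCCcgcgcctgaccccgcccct
Cdc6: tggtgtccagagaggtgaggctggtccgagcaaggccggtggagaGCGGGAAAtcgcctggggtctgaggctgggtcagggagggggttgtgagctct
Mcm6: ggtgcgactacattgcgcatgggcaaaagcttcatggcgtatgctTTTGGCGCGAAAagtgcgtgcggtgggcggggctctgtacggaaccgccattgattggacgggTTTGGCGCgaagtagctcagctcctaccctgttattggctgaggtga

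At 4 h the response was broad. Of 10518 genes tested, 3228 passed an adjusted p of 0.05 by limma with Benjamini-Hochberg adjustment (30.7%), of which 1504 were higher (14.3%) and 1724 were lower (16.4%). Without adjustment, 3921 genes had p under 0.05. The 2 directions differed in size. Among genes that rose, 374 were at least 2-fold higher, 136 at least 4-fold, 49 at least 8-fold and 15 at least 16-fold, and the median fold was 1.41. Among genes that fell, 119 were at least 2-fold lower and 2 at least 4-fold, and the median fold was 1.32. Smaller folds were the majority on both sides, since 57.4% of the higher and 74.5% of the lower calls were under 1.5-fold. Of the higher calls 1452 had the same sign in all 3 sets and 1181 on all 6 arrays, and of the lower calls 1669 and 1300. A fit on the 3 sets at 4 h alone, with 2 residual degrees of freedom in place of 29, called 1461 genes, 731 higher and 730 lower. Of the 3228 genes, 1347 were called there too. Of the 373 called genes that the naming rule covers, at least 150 were not called there. Genes named only as cell type markers or for a difference between times were not looked up in that fit. Among the 150 were Tlr4, Il6, Cxcl10, Ifit2, Nos2 and Egr1, whose array values are given below. The lists below are given over their measured members, those with a value other than 0 on at least 1 of the 6 arrays. Over all 9298 measured genes, 16.2% were called higher and 18.5% lower, with a median of −0.01.

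**Figure D1:**
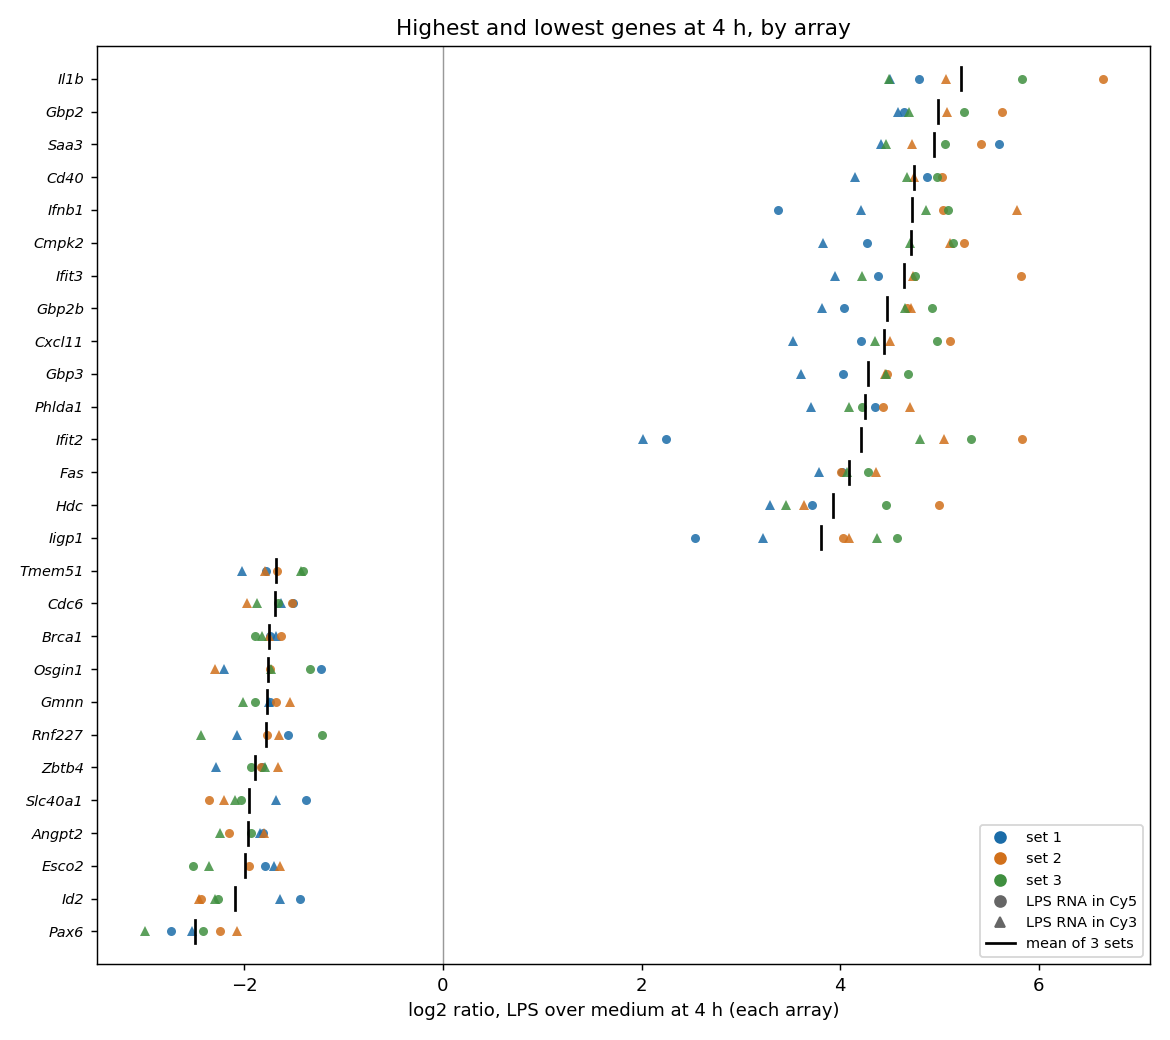
Log2 ratio of LPS over medium at 4 h on each of the 6 arrays for the 15 highest and 12 lowest genes past the threshold with a value other than 0 on all 6 arrays. Colours are sets, circles have the LPS RNA in Cy5 and triangles in Cy3, and bars are means of 3 sets. All 6 arrays lie on the same side of 0 for each of the 27 genes, and Ifit2 in set 1 lies apart from the other sets.

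The highest genes are those with a value other than 0 on all 6 arrays and the same sign in all sets. Il1b, which encodes the fever-inducing cytokine interleukin 1 beta, stood at 4.79 and 4.50 in set 1, 6.64 and 5.07 in set 2, and 5.83 and 4.49 in set 3, the first value of each set being the array with LPS RNA in Cy5. Its mean was 5.22 ± 0.61, a 37.3-fold rise (limma adjusted p = 4.63e-14). The value of set 2 in Cy5 sits at the 100-fold limit of the table for all 3 probes of this gene, so that array gives a lower bound. Gbp2, a guanylate-binding protein that attacks pathogen vacuoles, had values of 4.65 and 4.58 in set 1, 5.63 and 5.08 in set 2, and 5.25 and 4.70 in set 3. All of them lay above 4.5, and the mean was 4.98 ± 0.37 (limma adjusted p = 1.5e-20). Saa3, an acute phase serum amyloid A, followed at 4.95 ± 0.16, with set values of 5.0, 5.08 and 4.76. Cd40, the receptor for T cell help, had nearly the same value in each set (4.51, 4.89 and 4.83). Phlda1 had a mean of 4.25 ± 0.28, and Fas, a death receptor, one of 4.09 ± 0.16. Hdc encodes the enzyme that makes histamine, and its set values were 3.51, 4.32 and 3.96. The other genes among the 15 highest are described with their lists: Ifnb1, Cmpk2, Ifit3, Gbp2b, Cxcl11, Gbp3, Ifit2 and Iigp1.

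The lowest genes moved by smaller amounts. Pax6, a developmental transcription factor, stood at −2.74 and −2.52 in set 1, −2.25 and −2.08 in set 2, and −2.41 and −3.01 in set 3. It was below −2 on all 6 arrays, with a mean of −2.5 ± 0.30 (limma adjusted p = 4e-13). Id2, an inhibitor of helix-loop-helix factors, had array values of −1.44 and −1.64 in set 1, −2.44 and −2.46 in set 2, and −2.27 and −2.30 in set 3. Both arrays of set 1 were nearer to 0 than those of the other sets, and the mean was −2.09 ± 0.48 (limma adjusted p = 4.04e-09). Esco2, which acetylates cohesin during replication, had set values of −1.75, −1.80 and −2.44. Angpt2, a vessel growth factor, had a mean of −1.96 ± 0.13, with its 2 probes at −2.51 and −1.42. Slc40a1, which encodes ferroportin, the only known cellular iron exporter, had set values of −1.53, −2.28 and −2.06 (limma adjusted p = 4.61e-12). The next were Zbtb4, a methyl-DNA-binding repressor, at −1.89 ± 0.16, Rnf227 at −1.79 ± 0.06, and Gmnn, geminin, at −1.77 ± 0.18. Osgin1, an oxidative stress response gene, stood at −1.76 ± 0.25, and Brca1, a DNA repair gene, at −1.75 ± 0.09. Cdc6 stood at −1.70 ± 0.11 and Tmem51 at −1.69 ± 0.25.

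**Figure D2:**
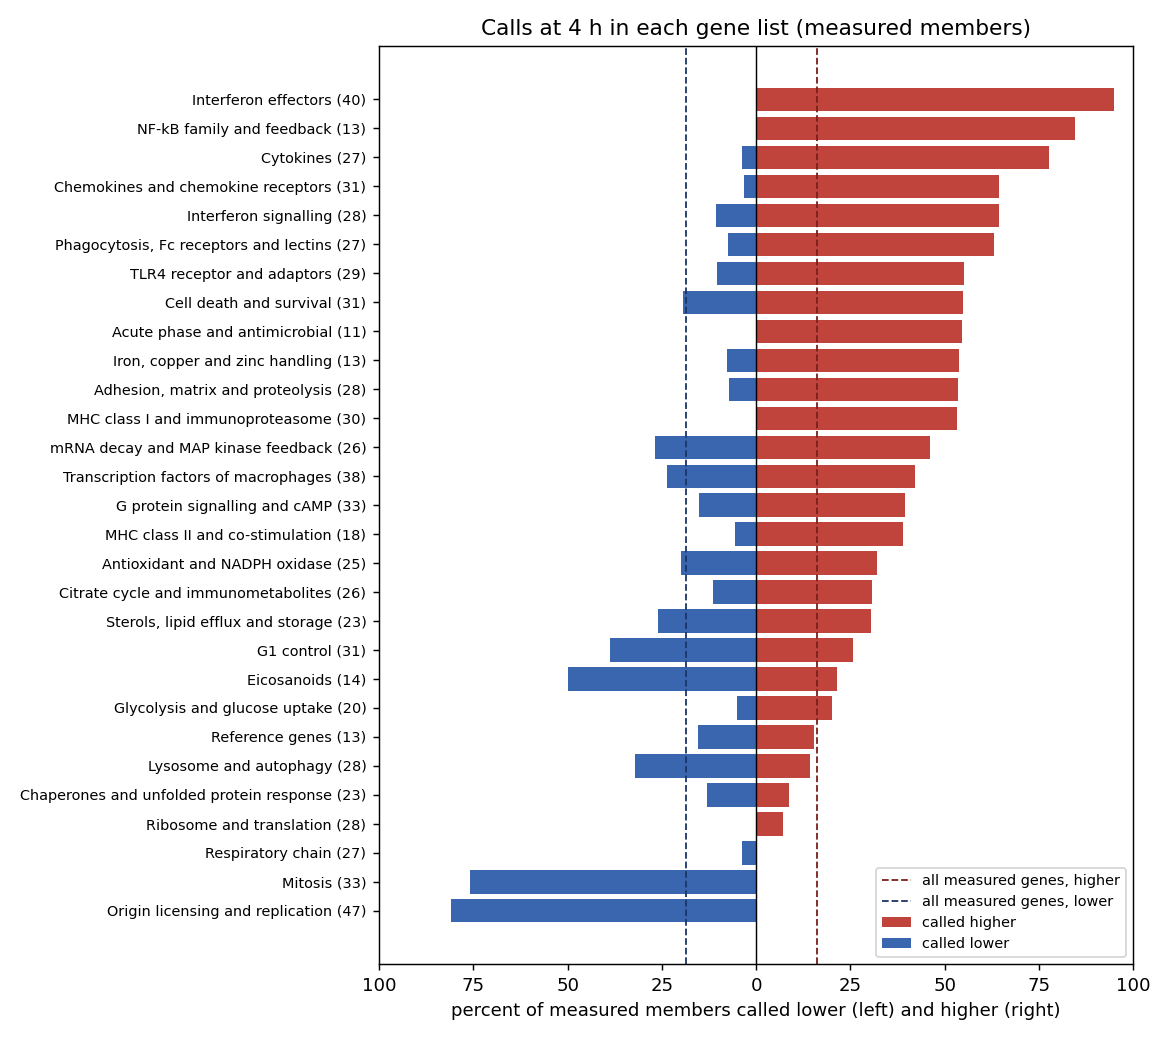
Percent of measured members of each of 29 gene lists called higher (right, red) or lower (left, blue) at 4 h, with the number of measured members in brackets and dashed lines for all measured genes, 16.2% and 18.5%. Interferon effectors stand at 95.0% higher and replication genes at 80.9% lower, each with no call in the other direction.

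Receptors and signalling genes of the LPS pathway rose more often than they fell. Of 29 measured members, 16 rose (55.2%) and 3 fell (10.3%), with a median of 0.25. Over all measured genes the shares were 16.2% and 18.5%. Tlr4 itself, the LPS receptor, stood at −0.53 and −0.46 in set 1, −0.85 and −0.69 in set 2, and −0.53 and −0.42 in set 3. All 6 values were below 0, and the mean was −0.58 ± 0.16 (limma adjusted p = 1.46e-05), although 1 of its 3 probes was listed at 0 throughout. Its partners did not pass the test: Cd14 stood at 0.03 ± 0.12 and Ly96, which encodes MD-2, at 0.17 ± 0.19. Cd14 differed between dye orientations, at −0.38 on the arrays with LPS RNA in Cy5 alone (limma adjusted p = 0.0273). Receptors for other microbial products rose. Tlr3, a sensor of double-stranded RNA, had set values of 2.45, 2.81 and 2.98 and a mean of 2.75 ± 0.27 (limma adjusted p = 2.89e-16). Tlr1 and Tlr2, which together sense bacterial lipopeptides, stood at 1.57 ± 0.15 and 1.13 ± 0.06. All 3 measured adaptors rose, Myd88 to 1.09 ± 0.13, Pik3ap1 to 0.93 ± 0.26 and Tirap to 0.34 ± 0.09. Among 16 kinases and ligases 7 rose and 2 fell. The ligase gene Peli1 stood at 2.74 ± 0.32 and the kinase gene Map3k8 at 2.38 ± 0.63. Ikbke had a mean of 1.43 ± 0.13, but its 2 probes stood at −0.01 and 2.87. The 2 that fell were Tab1, at −0.50 ± 0.15, and Sigirr, an inhibitor of Toll and interleukin 1 receptors, at −0.36 ± 0.23. The call of Sigirr was lost without set 2. In the fit on the 3 sets alone the list had 8 members higher and 1 lower.

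The NF-kB list rose in nearly all of its members. Of 13 measured, 11 rose and none fell, with a median of 1.65. Nfkbiz, an inducible nuclear cofactor of NF-kB, stood at 2.93 and 2.86 in set 1, 3.36 and 3.37 in set 2, and 2.81 and 2.77 in set 3. Its mean was 3.02 ± 0.30, with its 2 probes at 1.90 and 4.14 (limma adjusted p = 2.49e-15). The feedback inhibitors Tnfaip3 and Nfkbia, whose upstream stretches are printed above, stood at 2.34 ± 0.32 and 1.93 ± 0.29. Nfkbia had set values of 1.62, 2.18 and 2.00, all above 1.6. Tnfaip2 stood at 2.60 ± 0.46, Nfkbie at 1.84 ± 0.26, Bcl3 at 1.80 ± 0.53 and Nfkbib at 1.02 ± 0.14. Of the 4 measured subunits 3 rose, Nfkb2 to 1.65 ± 0.11, Relb to 1.04 ± 0.11 and Rel to 0.61 ± 0.06, the last losing its call without set 2. Rela, the main activating subunit, was not past the threshold at −0.17 ± 0.10. It had stood at 0.77 at 2 h and 0.83 at 1 h, and the difference from either time was past the threshold (limma adjusted p = 4.05e-05 against 2 h and 7.73e-06 against 1 h).

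Cytokine genes rose widely. Of 27 measured, 21 rose and 1 fell, with a median of 1.28, and 4 more were at 0 on all 6 arrays. In the fit on the 3 sets alone 14 were called higher and none lower. Ifnb1, interferon beta, stood at 3.38 and 4.21 in set 1, 5.04 and 5.78 in set 2, and 5.08 and 4.86 in set 3. Set 1 was the lowest on average, and the mean was 4.72 ± 0.84 (limma adjusted p = 2.28e-07). Il6, a fever and acute phase cytokine, had array values of 0 and 5.51 in set 1, 5.70 and 5.83 in set 2, and 5.51 and 5.29 in set 3. It was listed at 0 on 1 array of set 1 and lay above 5 on the other arrays, so its mean of 4.64 ± 1.64 includes that 0 (limma adjusted p = 2.02e-10). Tnf, tumour necrosis factor, had set values of 2.84, 3.77 and 3.65. Its mean of 3.42 ± 0.51 did not differ past the threshold from 3.55 ± 0.32 at 2 h or from 3.63 ± 0.08 at 1 h. Il1a, the membrane-bound relative of Il1b, had set values of 4.96, 2.83 and 5.38, with 1 array at 0. The growth factor genes Csf2 and Csf3, for GM-CSF and G-CSF, stood at 3.70 ± 0.60 and 2.36 ± 0.35. The 2 probes of Csf3 stood at −0.28 and 5.0. Il15, which sustains natural killer cells, stood at 3.51 ± 0.34 and Il18, a partner of interleukin 12, at 1.68 ± 0.36. Il10, the main anti-inflammatory cytokine of macrophages, rose to 3.20 ± 0.46 (set values 2.68, 3.52 and 3.42). The antagonist Il1rn stood at 1.28 ± 1.11 with values on 4 arrays, with 1 of its probes at 0 on all 6 arrays and the other at 2.56. Tgfb1 stood at 1.04 ± 0.17. The only member called lower was Il4, at −0.26 ± 0.19, a call lost without set 1 and without set 2. Il12b was at 0.11 ± 0.21 with values on 4 arrays and did not pass. In the TNF superfamily Ltb stood at 1.51 ± 0.33 and Tnfsf13b, the B cell survival factor BAFF, at 0.76 ± 0.39. Tnfsf9 stood at 0.62 ± 0.30, below its 1.98 at 2 h (limma adjusted p of the difference 0.000679), and its call at 4 h was lost without set 1.

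Chemokine genes rose with wide differences between probes. Of 31 measured ligands and receptors, 20 rose and 1 fell, with a median of 1.0, and each of the 9 measured CC ligands rose. Cxcl11, an interferon-induced attractant of T cells, stood at 4.21 and 3.53 in set 1, 5.11 and 4.50 in set 2, and 4.97 and 4.35 in set 3. All values were above 3.5, and the mean was 4.45 ± 0.50 (limma adjusted p = 4.12e-17). Cxcl10, of the same family, had array values of 2.05 and 1.96 in set 1, 0 and 2.10 in set 2, and 2.48 and 1.97 in set 3. Its 2 probes stood at 0 and 3.52, so the mean of 1.76 ± 0.62 understates the probe with values. Ccl7, a monocyte attractant, had set values of 3.17, 3.84 and 3.23, and Ccl12 of 2.34, 2.56 and 3.62. Ccl5, Ccl4 and Ccl22 stood at 1.96 ± 0.29, 1.77 ± 0.55 and 2.57 ± 0.85. Each had a probe at or near 0 beside one at 3.92, 4.6 and 4.30. Ccl2 and Ccl3, attractants of monocytes and other leukocytes, were listed at 0 on all 6 arrays. At 2 h and 1 h Ccl2 had stood at 1.23 and 1.46, and Ccl3 at 0.30 and 1.19. The value of Ccl3 at 2 h was not past the threshold. The zeros give no level at 4 h. Cxcl2, a neutrophil attractant, had values on 3 arrays only, with a mean of 1.31 ± 1.34, and lost its call without set 2 and without set 3. Among the receptors Fpr2, for formyl peptides, rose to 3.10 ± 0.48, with set values of 2.55, 3.34 and 3.42. Ccrl2 stood at 2.24 ± 0.22, C3ar1, the complement C3a receptor, at 1.68 ± 0.44 and Ccr1 at 1.46 ± 0.28. Cxcr3 was the member that fell (−0.43 ± 0.02), with 1 of its 2 probes at 0. The list's count of higher members was 9 in the fit on the 3 sets alone.

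Genes that carry the interferon signal rose in 18 and fell in 3 of 28 measured members, with a median of 0.60. The fit on the 3 sets alone called 12 higher and 1 lower. Stat2, part of the complex that binds the ISRE, stood at 2.22 and 2.17 in set 1, 3.13 and 2.77 in set 2, and 2.79 and 2.49 in set 3. Its mean was 2.60 ± 0.38 (limma adjusted p = 4.57e-14), and at 1 h it had been called lower at −0.57 ± 0.29. Irf1 stood at 2.57 ± 0.63, Irf7, the factor that amplifies interferon alpha genes, at 1.61 ± 0.27, and Irf9, the DNA-binding partner of STAT2, at 0.83 ± 0.23. Irf8 and Stat3 stood at 1.49 ± 0.25 and 1.45 ± 0.28, and Batf2 at 2.52 ± 0.35. Irf3, which is known to act without induction, did not pass at −0.07 ± 0.17. The kinase genes Jak2 and Tyk2 rose to 1.95 ± 0.19 and 0.97 ± 0.18. Receptor genes moved differently: Ifnar2 stood at −0.35 ± 0.09 and Ifngr1 at −0.79 ± 0.08, both lower, while Ifnar1 stood at 0.02 ± 0.06 and did not pass. Feedback genes rose, Usp18, which removes ISG15 and blocks the receptor, to 3.05 ± 0.70, Trim21 to 2.84 ± 0.43 and Socs1 to 2.34 ± 0.56. Socs3 did not pass (0.09 ± 0.28), and Pias1 was the third member that fell, at −0.28 ± 0.13, a call lost without set 2.

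Interferon effector genes formed the list with the highest share of calls. Of 40 measured members 38 rose and none fell, with a median of 2.66, and 37 were above 0 on all 6 arrays. The 2 that did not pass were Sting1 at 0.33 ± 0.26 and Ifitm3 at 0.27 ± 0.26. The count was 38 or 39 without each set in turn and 34 in the fit on the 3 sets alone. Ifit3, which binds foreign RNA, stood at 4.38 and 3.95 in set 1, 5.82 and 4.74 in set 2, and 4.76 and 4.22 in set 3 and averaged 4.64 ± 0.57 (limma adjusted p = 1.54e-18). Ifit2, of the same family, stood at 2.25 and 2.02 in set 1, 5.83 and 5.05 in set 2, and 5.32 and 4.80 in set 3. Its values in set 1 were far below those of sets 2 and 3, which gives the wide SD of its mean of 4.21 ± 1.81 (limma adjusted p = 4.3e-11). Ifit1 averaged 2.69 ± 0.60 over 2 probes at 0.90 and 4.48. Cmpk2, a mitochondrial nucleotide kinase beside the antiviral gene Rsad2, had array values of 4.28 and 3.83 in set 1, 5.25 and 5.11 in set 2, and 5.14 and 4.71 in set 3 and a mean of 4.72 ± 0.59. Rsad2, viperin, had values on 3 arrays, at set means of 0, 5.44 and 2.05, and lost its call without set 2. All 11 measured GTPases rose, most of them guanylate-binding or immunity-related proteins, which disrupt vacuoles of intracellular microbes. These families hold closely related copies, and whether a probe takes up signal from a related gene was not tested. Besides Gbp2, Gbp3 stood at 4.29 ± 0.41, Iigp1 at 3.81 ± 0.83, Igtp at 3.24 ± 0.52, Irgm2 at 3.33 ± 0.61, Tgtp1 at 3.25 ± 0.11 and Irgm1 at 2.96 ± 0.76. Gbp2b, a further guanylate-binding protein gene outside the list, averaged 4.47 ± 0.47. The lowest of the 11 was Gbp4 at 0.42 ± 0.08. The antiviral GTPases Mx1 and Mx2 stood at 3.70 ± 0.48 and 3.13 ± 0.42. Sensors of nucleic acid rose in 7 of 8 members. Ifih1, which encodes MDA5, stood at 3.63 ± 0.42, Ifi204 at 3.43 ± 0.60, Zbp1 at 3.04 ± 0.20 and Dhx58 at 2.12 ± 0.29. Eif2ak2, the kinase PKR that halts translation, rose to 1.59 ± 0.18 after a call lower at 1 h (−0.39 ± 0.57). All 5 members of the ISG15 pathway rose: Isg15 to 3.62 ± 0.51, the ligase Herc6 to 2.69 ± 0.36, the activating enzyme Uba7 to 1.89 ± 0.20, the conjugating enzyme Ube2l6 to 1.07 ± 0.15, and Usp18 as above.

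**Figure D3:**
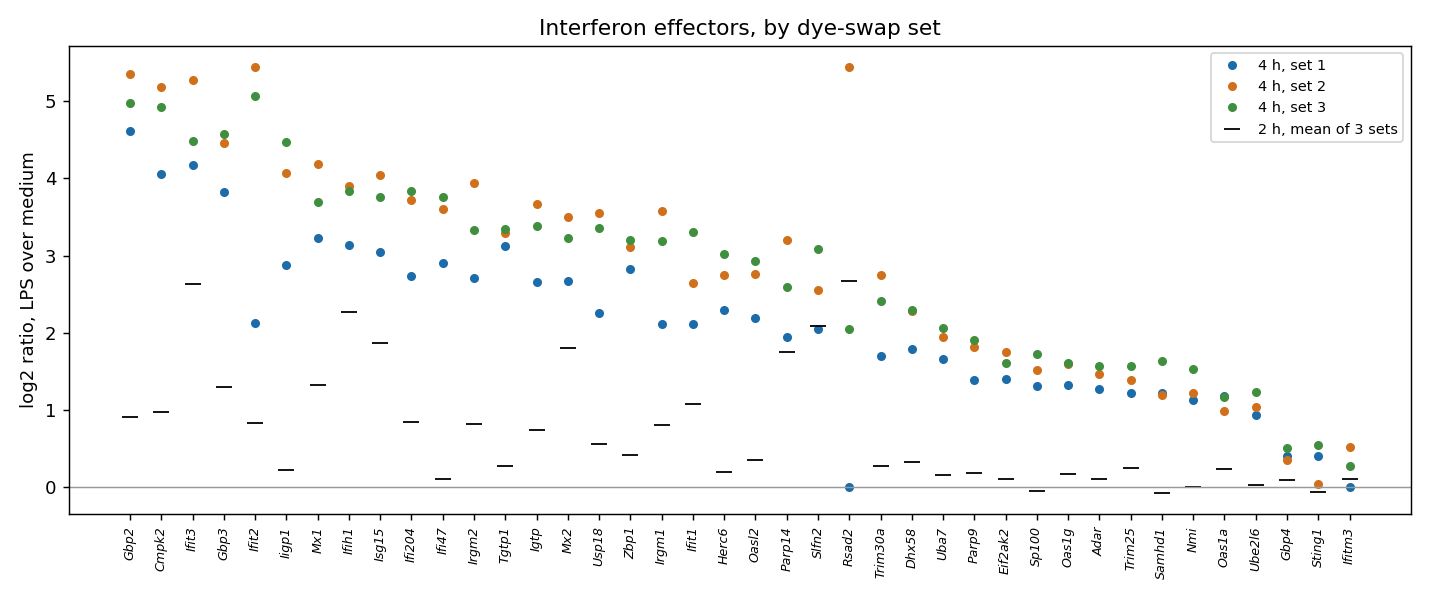
Log2 ratio of LPS over medium for the 40 measured interferon effector genes, ordered by their mean at 4 h. Circles are the 3 sets at 4 h and black bars the mean of 3 sets at 2 h. Set 1 (blue) is the lowest of the 3 sets for 36 of the 40 genes, and 35 genes lie above their 2 h value by limma.

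The sets differed in the size of the response, and not only for interferon effectors. Set 1 was the lowest of the 3 sets in 36 of 40 effectors, and the median of the 40 was 2.11 in set 1, 2.93 in set 2 and 3.05 in set 3. Among all genes called higher set 1 was the lowest in 44.8%, and among those at least 2-fold higher in 64.7%. By list this share ran from 7.14% for eicosanoid enzymes to 90% for the effectors. It was 69.2% in the NF-kB list, with medians of 1.24, 1.58 and 1.70 in sets 1 to 3. In the chemokine list it was 64.5%, with medians of 0.21, 1.12 and 1.14. Set 1 also had the larger shares of probes at 0, given above. Their part in this order was not tested.

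Genes of antigen presentation by MHC class I rose moderately. Of 30 measured, 16 rose and none fell, with a median of 0.24. Tap1, which pumps peptides into the endoplasmic reticulum, had set values of 1.63, 2.02 and 2.27 and a mean of 1.97 ± 0.32 (limma adjusted p = 1.34e-15). Its partner Tap2 stood at 1.18 ± 0.19 and the loading factor Tapbp at 1.18 ± 0.22. B2m, the light chain, stood at 0.29 ± 0.04, and the heavy chain genes H2-K1 and H2-D1 at 0.56 ± 0.24 and 0.52 ± 0.23, both losing the call without set 3. Of the 3 measured immunoproteasome subunits 2 rose, Psmb10 to 1.21 ± 0.26 and Psmb8 to 0.64 ± 0.27. Psmb9 had values on 2 arrays (−0.08 ± 0.09). Of 15 constitutive proteasome subunits 5 rose, Psma6 being the highest at 0.77 ± 0.06. MHC class II and co-stimulation genes split by role. Of 11 co-stimulation genes 6 rose, among them Cd40 (4.74 ± 0.20), Cd274, the ligand PD-L1, at 2.97 ± 0.95, Cd83 at 2.66 ± 0.56 and Cd80 at 1.57 ± 0.28. Cd86 had values on 4 arrays (0.17 ± 0.18). Of 7 class II genes Cd74, the invariant chain, rose (0.55 ± 0.19), a call lost without set 3. H2-Aa was called lower from 1 array with a value (−0.16 ± 0.28), a call lost without set 3, and Ciita, the master regulator, stood at −0.02 ± 0.10.

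Genes of cell death and survival rose in 17 (54.8%) and fell in 6 (19.4%) of 31 measured members, with a median of 0.35. Over all measured genes the shares were 16.2% and 18.5%, so the lower share was near that of all genes. Fas had array values of 4.02 and 3.79 in set 1, 4.01 and 4.36 in set 2, and 4.28 and 4.07 in set 3, which are close to each other (limma adjusted p = 2.82e-16). Tnfrsf1b, the second TNF receptor, stood at 3.46 ± 0.37, and the survival factors Traf1, Cflar and Birc3 at 2.59 ± 0.20, 2.12 ± 0.34 and 1.08 ± 0.27. Among BCL2 relatives the protective Bcl2a1a and Bcl2a1d stood at 2.71 ± 0.18 and 2.66 ± 0.18, 2 near-identical genes whose probes may not tell them apart. Bcl2l11, which promotes death, rose as well, to 1.57 ± 0.20. Bcl2 fell to −0.47 ± 0.09, and the death promoters Pmaip1 and Bbc3 fell to −0.77 ± 0.34 and −0.43 ± 0.10. Casp4, which senses LPS in the cytosol, stood at 1.61 ± 0.19 and Casp8 at 0.71 ± 0.19. Casp1 stood at 0.54 ± 0.10, from 1 probe at 0 and 1 at 1.09. Casp6 was called lower at −0.19 ± 0.06, lost without set 3.

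Genes that copy DNA fell together. Of 47 measured replication genes 38 fell and none rose, with a median of −0.53, and 36 were below 0 on all 6 arrays. The median of the list lay between −0.58 and −0.48 on each of the 6 arrays. Cdc6, which loads the helicase onto origins, stood at −1.51 and −1.63 in set 1, −1.52 and −1.97 in set 2, and −1.66 and −1.88 in set 3, and its mean was −1.70 ± 0.11 (limma adjusted p = 6.48e-13). Gmnn, geminin, which blocks a second loading, stood at −1.74 and −1.76 in set 1, −1.68 and −1.54 in set 2, and −1.90 and −2.01 in set 3, with a mean of −1.77 ± 0.18 (limma adjusted p = 3.02e-17). The 6 subunits of the helicase all fell, from −0.29 ± 0.04 for Mcm3 to −0.80 ± 0.18 for Mcm4. Between them lay Mcm7 at −0.57 ± 0.07, Mcm5 at −0.60 ± 0.04, Mcm6, whose upstream stretch is printed above, at −0.68 ± 0.07 and Mcm2 at −0.76 ± 0.08. Mcm10 did not pass (0.17 ± 0.12). Of 22 genes of the fork 19 fell, led by the single-strand binding subunit Rpa2 at −1.17 ± 0.11 and the histone chaperones Chaf1a at −0.99 ± 0.09 and Chaf1b at −0.96 ± 0.11. The clamp Pcna had values on 4 arrays and stood at −0.46 ± 0.14. Of 8 genes of nucleotide supply 7 fell. Tk1, thymidine kinase, had set values of −1.28, −1.53 and −1.5 and Rrm2, a subunit of ribonucleotide reductase, of −1.02, −0.78 and −1.30. Among cohesion genes Esco2 and Smc3 fell, to −1.99 ± 0.38 and −0.53 ± 0.15, while Stag1, Stag2 and Smc1a did not pass. In the fit on the 3 sets alone 23 of the 47 were called lower.

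Mitotic genes fell as well. Of 33 measured, 25 fell and none rose, with a median of −0.37. Wee1, the kinase that holds cells before mitosis, had set values of −1.20, −1.26 and −1.23 and a mean of −1.23 ± 0.03 (limma adjusted p = 3.64e-11). The proliferation marker Mki67 stood at −0.87 ± 0.10, the cyclin Ccna2 at −0.79 ± 0.13 and the kinetochore gene Nuf2 at −0.69 ± 0.11. Cdk1, the mitotic kinase, did not pass at −0.14 ± 0.15, nor did Aurka at −0.22 ± 0.08 and Aurkb at 0.11 ± 0.04. The calls of Top2a and Ccnb2, at −0.32 ± 0.06 and −0.28 ± 0.15, were lost without set 2 and without set 3. The count was 11 in the fit on the 3 sets alone. Genes of G1 control went both ways, with 8 higher and 12 lower of 31 and a median of −0.07. The E-type cyclins that start replication fell, Ccne2 to −1.47 ± 0.94 (5 arrays with values) and Ccne1 to −0.76 ± 0.13, over probes at −1.41 and −0.12. E2f1, the activating E2F, fell to −0.88 ± 0.07 and Cdkn2c, an inhibitor of CDK4 and CDK6, to −1.27 ± 0.16. Ccnd1 and Cdk4 did not pass, at 0.04 ± 0.11 and −0.07 ± 0.07. Myc rose to 3.48 ± 0.34 with set values of 3.87, 3.31 and 3.26 (limma adjusted p = 1.67e-08), as did its antagonist Mxd1, to 2.09 ± 0.38. The stress inhibitors Gadd45b and Gadd45a stood at 2.39 ± 0.21 and 1.61 ± 0.64. Cdkn1a, p21, stood at 0.70 ± 0.10 over 3 probes between −0.11 and 1.15. Without each set in turn 7 to 9 of these genes were called higher and 10 to 12 lower, and the fit on the 3 sets alone called 4 and 5.

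Of 12 measured immunometabolite enzymes 8 rose and none fell. Of 14 citrate cycle genes none rose and 3 fell, which is 21.4% beside 18.5% of all measured genes, and none was called lower in the fit on the 3 sets alone. Odc1, which starts polyamine synthesis, stood at 2.52 ± 0.45. Nos2, the inducible nitric oxide synthase, had array values of 1.21 and 2.38 in set 1, 1.16 and 1.94 in set 2, and 2.69 and 2.45 in set 3. All lay above 1, with a mean of 1.97 ± 0.53 (limma adjusted p = 7.29e-14). Its cofactor gene Gch1 stood at 1.87 ± 0.14 and Ass1, which recycles its substrate arginine, at 1.63 ± 0.29. Acod1, which makes the antibacterial metabolite itaconate, was listed at 0 on all 6 arrays, after 4.61 ± 0.40 at 2 h and 3.33 ± 0.79 at 1 h. Its only probe gives no level at 4 h. In the citrate cycle Idh3a stood at −0.32 ± 0.12 and Idh1, not past the threshold, at −0.36 ± 0.11. Of 20 glycolysis and glucose uptake genes 4 rose and 1 fell, with a median of 0.02, and the lower call was lost without any 1 of the 3 sets. Slc2a1, the glucose transporter GLUT1, stood at 1.0 ± 0.16, the first enzyme Hk2 at 0.94 ± 0.09 and the regulatory enzyme Pfkfb3 at 0.87 ± 0.36. Pfkp, at 0.23 ± 0.14, lost its call without set 2 and without set 3. Hif1a stood at 0.02 ± 0.29. Of 27 respiratory chain genes none rose and 1 fell, Atp5c1 at −0.25 ± 0.18, a call lost without set 1.

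Antioxidant and oxidase genes rose more often than all measured genes, but did not clearly fall more often. Of 25 measured, 8 rose and 5 fell, with a median of 0.03. The lower share was near the 18.5% of all measured genes, and the higher share was above their 16.2%. Sod2, the mitochondrial superoxide dismutase, stood at 1.33 ± 0.26 and Cybb, the catalytic subunit of the phagocyte oxidase, at 1.19 ± 0.10. Keap1, the inhibitor of the antioxidant factor NRF2, rose to 0.94 ± 0.24. Gclc, which limits glutathione synthesis, fell to −1.39 ± 0.16, with set values of −1.25, −1.35 and −1.57 (limma adjusted p = 8.8e-15). Hmox1, a well-known stress gene, stood at 0.02 ± 0.33 and did not pass. Among 13 genes of metal handling 7 rose and 1 fell. The 1 was Slc40a1, whose array values were −1.38 and −1.68 in set 1, −2.36 and −2.20 in set 2, and −2.03 and −2.10 in set 3. Of 9 genes of iron 4 rose. Among them the iron transporters Slc11a2 and Slc11a1 stood at 1.09 ± 0.30 and 0.77 ± 0.04, and Cp, the iron oxidase ceruloplasmin, at 1.56 ± 0.19. Slc31a2, a copper transporter, stood at 2.37 ± 0.36 and the metal-binding Mt2 at 1.58 ± 0.28. The ferritin genes Fth1 and Ftl1 were listed at 0 on all 6 arrays. Tfrc, the transferrin receptor, did not pass and averaged −0.14 ± 0.38 over 2 probes of opposite sign (−0.79 and 0.51).

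Lipid genes showed 7 higher and 6 lower of 23, with a median of 0.01. Pparg, a nuclear receptor of lipid storage, stood at −0.83 ± 0.11 (limma adjusted p = 1.63e-11), the lipid synthesis factor Srebf1 at −0.79 ± 0.21 and the desaturase Scd2 at −0.82 ± 0.28. Msr1, a scavenger receptor, rose to 0.91 ± 0.05 and the droplet gene Hilpda to 1.39 ± 0.80. Abca1 and Abcg1, cholesterol exporters, stood at 0.65 ± 0.91 and −0.51 ± 0.38. The first did not pass, and the second lost its call without set 1 and without set 2. The count of higher genes fell from 7 to 4 without set 1 and without set 2, and to 1 in the fit on the 3 sets alone. Eicosanoid enzymes showed 3 higher and 7 lower of 14. Ptgs2, the inducible cyclooxygenase, had values on 4 arrays, with set values of 2.46, 2.29 and 4.11 and a mean of 2.96 ± 1.0 (limma adjusted p = 6.51e-07). Ptges, which makes prostaglandin E2 from its product, stood at 0.58 ± 0.34. The leukotriene genes Alox5ap and Pla2g4a, the second releasing the common precursor, fell to −0.40 ± 0.07 and −0.35 ± 0.09. Without set 2 or without set 3 the count of lower enzymes was 4. In the fit on the 3 sets alone 1 enzyme was called higher and 2 lower.

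Genes of uptake and recognition, most of them for receptors, rose in 17 and fell in 2 of 27 measured members, with a median of 0.34. The fit on the 3 sets alone called 11 higher and 2 lower. Cfb, complement factor B, is not a receptor, and is counted here and again among the acute phase genes below. It had set values of 2.5, 2.93 and 3.23 and a mean of 2.89 ± 0.37 (limma adjusted p = 1.65e-16), after −0.01 at 2 h. Fcgr1, the high-affinity IgG receptor, stood at 1.73 ± 0.30 and the inhibitory Fcgr2b at 1.05 ± 0.33, whereas Fcgr3 fell to −0.55 ± 0.15. Axl, a receptor for dying cells, stood at 1.86 ± 0.24. Among lectins Clec4e, or Mincle, stood at 2.37 ± 0.18, Siglec1 at 2.28 ± 0.10, Clec7a, or Dectin-1, at 1.48 ± 0.19 and Mrc1 at 1.07 ± 0.49. Pirb, an inhibitory receptor, fell to −0.70 ± 0.14. Lysosome and autophagy genes showed 4 higher and 9 lower of 28, with a median of −0.05. Tfeb, the main activator of lysosomal genes, stood at −0.64 ± 0.10, the autophagy genes Map1lc3b, Ulk1 and Atg7 at −0.69 ± 0.13, −0.45 ± 0.12 and −0.38 ± 0.02, and the channel gene Mcoln1 at −0.45 ± 0.04. Ctsc, a protease, rose to 0.77 ± 0.14. The count of higher members was 2 without set 2 or without set 3. Among acute phase and antimicrobial genes 6 of 11 rose and none fell, with Saa3, Cfb and Slpi (1.76 ± 0.06) the highest. The lysozyme gene Lyz2 was listed at 0 on all 6 arrays.

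Transcription factors of the lineage and of stress showed 16 higher and 9 lower of 38, with a median of 0.19. Cebpd stood at 3.31 ± 0.10 with set values of 3.19, 3.36 and 3.38 (limma adjusted p = 4.55e-14), and Id1 at 1.25 ± 0.29. Id3 fell to −1.22 ± 0.12 and Mef2c to −0.66 ± 0.07. Csf1r, the receptor for the macrophage growth factor, fell to −0.68 ± 0.10, with set values of −0.61, −0.79 and −0.63, and Spi1, the lineage factor PU.1, stood at 0.48 ± 0.12, losing its call without set 3. Egr1, an immediate early gene, had array values of 2.45 and 2.03 in set 1, 3.23 and 3.51 in set 2, and 4.69 and 4.49 in set 3. The spread between sets is wide, and the mean was 3.40 ± 1.18 (limma adjusted p = 1.2e-06). Atf3, a brake on inflammatory genes, stood at 2.30 ± 0.10. Fos, Jun and Nr4a1 did not pass, at 0.11 ± 0.15, 0.42 ± 0.39 and −0.81 ± 0.14. The count of lower members was 5 without set 2 and 4 without set 3. In the fit on the 3 sets alone the list had 7 members higher and 7 lower. In the list of mRNA decay and MAP kinase feedback 12 rose and 7 fell of 26. Zfp36, which destroys cytokine mRNA, stood at 3.14 ± 0.35 (set values 2.83, 3.07 and 3.52), and Zfp36l1 at 1.13 ± 0.08. The phosphatase genes Dusp2 and Dusp6 rose to 1.73 ± 0.36 and 1.63 ± 0.90. Dusp14 fell to −1.32 ± 0.34, with set values of −1.0, −1.28 and −1.68. None of the 7 lower members was called in the fit on the 3 sets alone.

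Adhesion and matrix genes rose in 15 and fell in 2 of 28, with a median of 0.41. Tnc, the matrix protein tenascin C, had set values of 2.86, 4.06 and 3.61 and a mean of 3.51 ± 0.61 (limma adjusted p = 1.72e-12). Timp1, an inhibitor of matrix proteases, stood at 2.54 ± 1.06, tissue factor F3, which starts clotting, at 2.49 ± 1.16, and the protease Mmp9 at 2.08 ± 0.56. Mmp14 stood at 1.65 ± 0.45 over probes at 0.26 and 3.03. Adam8 fell to −0.70 ± 0.19. Edil3, at −0.84 ± 0.26, lost its call without set 1 and without set 3. The count of higher members was 5 in the fit on the 3 sets alone. Genes of G protein signalling showed 13 higher and 5 lower of 33, with a median of 0.22. Hcar2, the niacin receptor, had set values of 3.37, 4.21 and 3.81, and Gpr84, a receptor for fatty acids, of 2.77, 2.83 and 2.55. Rgs16, which shuts off G proteins, stood at 3.19 ± 0.19 and Pde4b, which degrades cyclic AMP, at 2.70 ± 0.70. The prostaglandin receptor gene Ptger2 stood at 1.54 ± 1.01, a call lost without set 2. The count of lower members was 3, 3 and 2 without sets 1, 2 and 3.

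Lists of general upkeep had small medians, though the chaperone list members Ppp1r15a and Dnajb9 moved by more than 2-fold. Of 28 measured ribosome and translation genes 2 rose and none fell, with a median of 0.07: Rpl32 at 0.28 ± 0.04 and Mybbp1a at 0.41 ± 0.04. A further 6 ribosomal protein genes were at 0 on all 6 arrays. Chaperones showed 2 higher and 3 lower of 23 (8.7% and 13.0%), with a median of −0.02. Ppp1r15a, which restarts translation after stress, stood at 1.53 ± 0.15. Dnajb9, a chaperone of the endoplasmic reticulum, fell to −1.14 ± 0.43, Dnajb1 to −0.44 ± 0.20 and Bag3 to −0.58 ± 0.23, the last lost without set 2. Dnaja1, at 0.17 ± 0.17, was the other higher call, lost without set 1 and without set 2. Of 13 reference genes, with a median of 0.01, 2 were called higher, B2m and Actb (0.22 ± 0.07). Polr2a (−0.33 ± 0.13) and Tubb5 (−0.23 ± 0.21) were called lower. That is 15.4% in each direction, beside 16.2% higher and 18.5% lower of all measured genes. Both lower calls were lost without set 2 and without set 3, and that of Actb without set 2. Gapdh, measured by 24 probes, stood at 0.004 ± 0.08, Hprt at 0.03 ± 0.13 and Ppia at 0.02 ± 0.11.

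The response at 4 h was next set against the response to the same treatment at 2 h and 1 h, each relative to medium of its own time. The comparison asks which genes changed between these times. Of the 1504 genes higher at 4 h, 664 were also called higher at 2 h, which is 44.1% of the 4 h calls and 71.1% of the 934 at 2 h. With 1 h, 281 were shared, 18.7% of the 4 h calls and 57.6% of the 488 at 1 h. Of the 1724 lower genes 561 were shared with 2 h (32.5% and 76.1% of 737) and 220 with 1 h (12.8% and 43.2% of 509). In all, 809 higher genes (53.8%) and 1109 lower genes (64.3%) were not so called at either earlier time. Tested directly, 1161 genes differed between 4 h and 2 h (11% of 10518), 574 with the higher log2 ratio at 4 h (5.46%) and 587 with the lower (5.58%). The count depended on the sets: it was 679 without set 2 and 651 without set 3, and 616 in a fit of the 3 LPS groups alone. Between 4 h and 1 h 2091 genes differed (19.9%), 1050 higher (9.98%) and 1041 lower (9.9%) at 4 h.

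**Figure D4:**
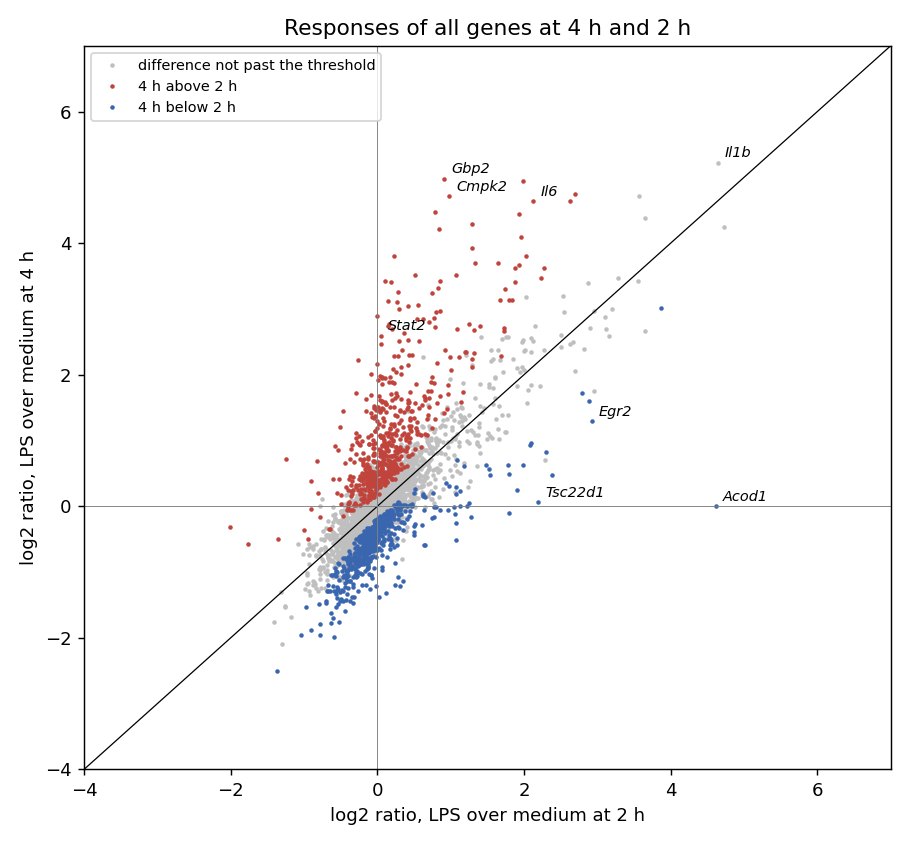
Log2 ratio of LPS over medium at 4 h (vertical) against 2 h (horizontal) for 10518 genes, each point the mean of 3 sets. Red points differ with the higher value at 4 h (574 genes) and blue points with the lower (587 genes) by limma at an adjusted p of 0.05, and the line marks equal values. Gbp2 and Cmpk2 lie high above the line, and Acod1 lies on 0 at 4 h because its values there are all listed at 0.

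Of the 8 genes with the largest rise from 2 h to 4 h, 5 were interferon effectors. Gbp2 went from set values of 1.33, 0.21 and 1.19 at 2 h to 4.62, 5.36 and 4.97 at 4 h, so the times do not overlap. The difference was 4.07 (SE 0.24, limma adjusted p = 8.88e-14). Cmpk2, Gbp2b and Iigp1 followed, with differences of 3.74, 3.69 and 3.58. Ifit2 differed by 3.37, Ifi47, a GTPase, by 3.31 and Ms4a4c, a membrane protein gene, by 3.22. Tnc, outside the list, differed by 2.99. Of the 40 effectors 35 were past the limma threshold for a value above that at 2 h and none for one below. The median of the list was −0.0022 at 1 h and 0.34 at 2 h, against 2.66 at 4 h. Il6 rose from 0.47 ± 0.23 at 1 h and 2.12 ± 1.33 at 2 h to 4.64 ± 1.64 (limma adjusted p = 4.13e-06 against 1 h). Saa3 and Hdc stood at 0.90 and 0.05 at 1 h, and differed from it by 4.05 and 3.88. Hcar2 had stood at −0.49 at 1 h and differed by 4.28.

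Replication genes were near medium at 1 h. The list's median was −0.05 at 1 h and −0.10 at 2 h, against −0.53 at 4 h, and 27 of 47 members were past the limma threshold for a value below that at 2 h, with none past it above. Cdc6 had set values of −0.75, 0.08 and −0.04 at 1 h and −1.04, −0.14 and −0.64 at 2 h (limma adjusted p of 4 h against 2 h 3.64e-05). Of 33 mitotic genes 8 were past it below their 2 h value and 17 below their 1 h value. Pax6 went from −0.09 ± 0.21 at 1 h to −1.36 ± 0.66 at 2 h, and differed by −2.41 from 1 h to 4 h (limma adjusted p = 8.8e-09).

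**Figure D5:**
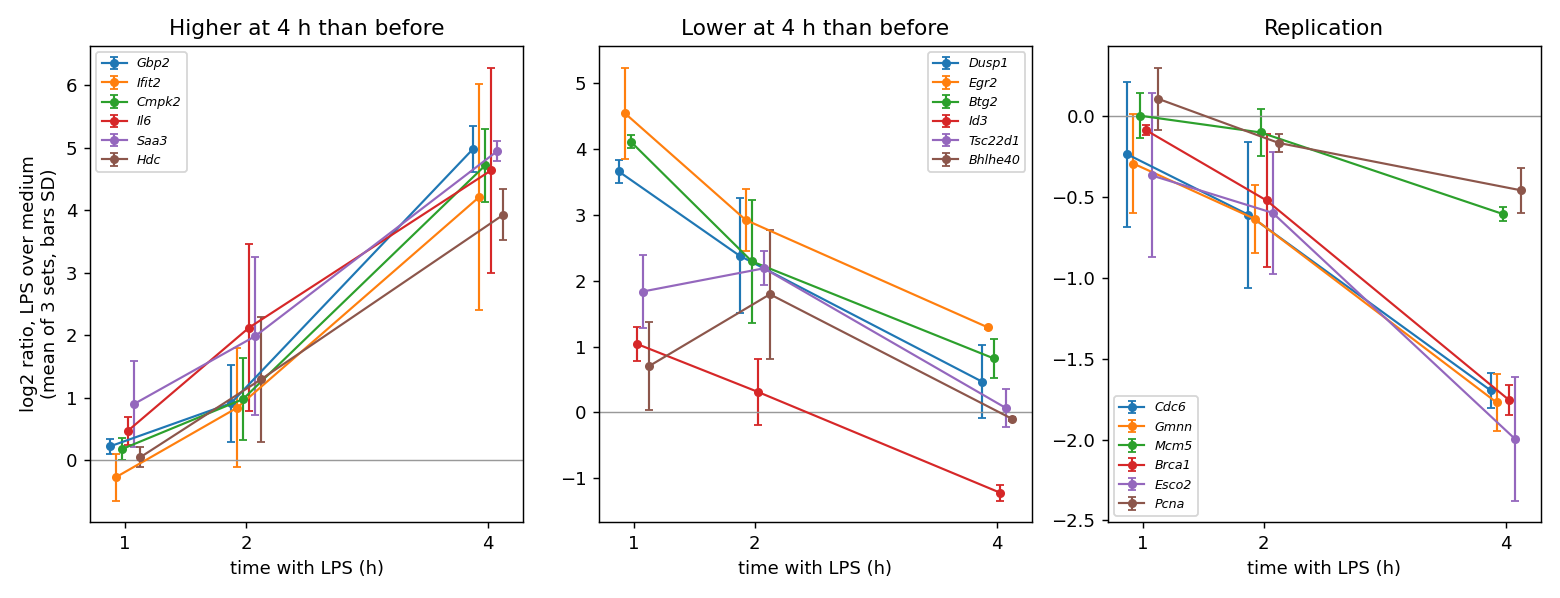
Log2 ratio of LPS over medium after 1, 2 and 4 h for 6 genes in each panel, as the mean of 3 sets with bars of SD, with points shifted sideways so that they do not hide each other. Genes of the left panel are highest at 4 h, those of the middle panel are lower at 4 h than at an earlier time, and the replication genes of the right panel are lowest at 4 h.

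Genes of early and stress responses went both ways. Of 21 measured factors in that role, 5 were past the limma threshold below their 1 h value and 4 above it, 3 were below and 2 above their 2 h value, and 10 were called higher at 4 h. Egr2, a zinc finger factor, had set values of 5.21, 3.83 and 4.61 at 1 h, 2.38, 3.28 and 3.12 at 2 h and 1.32, 1.26 and 1.30 at 4 h, with no overlap between the times. The difference of 4 h from 1 h was −3.26 (limma adjusted p = 3.2e-07). Dusp1, a phosphatase that ends MAP kinase signals, had set values of 3.57, 3.56 and 3.86 at 1 h and −0.16, 0.66 and 0.90 at 4 h. It was not past the threshold against medium at 4 h, and differed by −3.19 from 1 h (limma adjusted p = 2.58e-06). Btg2, which slows proliferation, went from 4.12 ± 0.10 at 1 h to 0.82 ± 0.30, a call at 4 h that was lost without set 3. The differences of Egr2, Dusp1 and Bhlhe40 from 2 h lost their calls without set 3, and that of Egr2 also without set 2. Tsc22d1 and Bhlhe40 stood at 2.19 ± 0.26 and 1.80 ± 0.98 at 2 h, and at 0.07 ± 0.29 and −0.10 ± 0.03 at 4 h. Id3, an inhibitor of helix-loop-helix factors, went from higher to lower than medium, from 1.04 ± 0.26 at 1 h to −1.22 ± 0.12 at 4 h (limma adjusted p of the difference 1.36e-07). Phlda1 did not follow them: it stood at 4.52 at 1 h, 4.73 at 2 h and 4.25 at 4 h. Nfkbiz fell from 3.87 ± 0.23 at 2 h to 3.02 ± 0.30 (limma adjusted p of the difference 0.0218).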

How the data were processed

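The 6 arrays at 4 h, and those at 1 h and 2 h, were taken from the authors' deposited table of log2 ratios, with 16281 probes on 88 arrays. The sources used here do not state how the authors made these log2 values, nor their scale, centring, direction or the meaning of exact 0. In the table every array's median is 0, and the largest deposited value is a 100-fold limit. Signs were turned where LPS RNA was in Cy3 and the 2 arrays of a set averaged. Of the probes, 13738 had 1 gene symbol, 52 several and 2491 none listed. Probes at 0 on every array were left out (478), and 13260 probes were averaged into 10518 genes. limma 3.58.1 in R 4.3.3 fitted 44 set means in 15 groups together (29 residual degrees of freedom), two-sided, with Benjamini-Hochberg adjustment over all genes, and was tested on simulated data. Alternatives were other samples in the fit, set number as a block, zeros as missing, a filter on zeros, other centring, a robust variance model, 1 probe per gene, either dye alone and each set left out.

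The members and lists were chosen with earlier results of these data known. Named genes are the 15 highest and 12 lowest at 4 h past the threshold with 1 sign in 3 sets and values on 6 arrays. They further include marked list members with the 3 highest and 3 lowest of each role, and the 8 highest and 8 lowest of each difference between times whose sets do not overlap. Irgm2, Tgtp1 and the genes of the other observations were named after their values were seen.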

Additional observations from a re-analysis of the deposited data

Results flagged for a closer look

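The response at 4 h differed from that at 2 h in 1161 genes and from that at 1 h in 2091 genes, by limma's test of the difference between the times. Groups of 3 sets are too small for the test of single outlying samples.

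From 2 h to 4 h the largest increases with no overlap between sets, on the log2 scale, were 4.07 for Gbp2, 3.74 for Cmpk2, 3.69 for Gbp2b, 3.58 for Iigp1, 3.37 for Ifit2, 3.31 for Ifi47, 3.22 for Ms4a4c and 2.99 for Tnc. The largest decreases were −4.62 for Acod1, −2.12 for Tsc22d1, −1.91 for Dusp1, −1.89 for Bhlhe40, −1.65 for Egr3, −1.63 for Egr2, −1.58 for Il7r and −1.53 for Id3. Of these, 5 lost their call when 1 set was left out: Bhlhe40, Dusp1 and Egr3 without set 3 (limma adjusted p = 0.0528, 0.0716 and 0.112), Egr2 without set 2 (0.0994) and without set 3 (0.0972), and Il7r likewise (0.11 and 0.091). The value of Acod1 rests on its being listed at 0 on all 6 arrays at 4 h.

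From 1 h to 4 h the largest increases were 4.76 for Gbp2, 4.54 for Cmpk2, 4.48 for Ifit2, 4.28 for Hcar2, 4.17 for Il6, 4.09 for Gbp2b, 4.05 for Saa3 and 3.88 for Hdc. The largest decreases were −3.33 for Acod1, again against listed zeros, −3.30 for Btg2, −3.26 for Egr2, −3.19 for Dusp1, −2.41 for Pax6, −2.26 for Id3, −2.25 for Tcim and −2.24 for Nr4a1. Pax6, a developmental factor, was among the lowest genes at 4 h as well, and the other 7 had been higher than medium at 1 h.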

How the results depend on the processing

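The sets at 4 h alone in the fit called 1461 genes (731 higher, 730 lower) in place of 3228. That fit also called fewer members in some lists for which it is not given above. Examples, as higher and lower, are 13 and 3 for cell death and survival, and 7 and 1 for G protein signalling. Antioxidant and oxidase genes had 6 and 1, and metal handling genes 4 and 1. For the difference from 2 h, a fit of the 3 LPS groups alone called 616 (345 and 271) in place of 1161. Leaving out each set in turn gave 2504 to 2865 genes at 4 h (1202 to 1373 higher, 1302 to 1492 lower). It gave 651 to 1011 for the difference from 2 h (373 to 530 higher, 278 to 481 lower) and 1563 to 1755 for that from 1 h. The fewer samples and residual degrees of freedom are part of how these fits are built, and no other cause was tested. With set number as a replicate block the counts were 3400, 1306 and 2278, and 99.7% of the calls at 4 h were shared. Deviations of same-numbered sets correlated at 0.03, −0.23 and 0.16 (sets 1 to 3) between 2 h and 4 h, and at −0.12, −0.19 and 0.03 between 1 h and 4 h, so the numbers were not taken to pair samples with 4 h. Between 1 h and 2 h they correlated at 0.15, 0.19 and 0.14, each set best with its own number, a hint from the data and not from the labels.

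Of named results under the alternatives, 9 reversed. On Cy5 arrays alone Cd14 was −0.38 and Sigirr 0.18. On Cy3 arrays alone Fh1 was 0.0027, Gusb 0.28, Psma1 0.25 and S1pr1 0.23. With 1 probe per gene Gpr35 was 0.10, Lta4h −0.11 and Tfrc 0.51. The cause was not tested, other than that the dye or probe changed. Listed zeros, and probes of a gene that disagree, limit what single genes show.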

Other observations

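Some genes had calls on opposite sides of medium at different times. At 4 h 51 genes were called higher that had been called lower at 1 h, and 26 that had been lower at 2 h. In the other direction 27 genes were called lower at 4 h after a higher call at 1 h, and 12 after one at 2 h. Besides Stat2 and Eif2ak2, those whose calls turned upward include Sp100, a nuclear body protein. It went from −0.29 ± 0.35 at 1 h to 1.52 ± 0.20 at 4 h. Apobec3, an antiviral deaminase, went from −0.50 ± 0.81 to 1.08 ± 0.23. Tlr6, which senses lipopeptides with Tlr2, went from −0.65 ± 0.46 to 0.86 ± 0.33. At 1 h the SDs over sets of Sp100, Apobec3 and Eif2ak2 were larger than the size of their means. Sgk1, a kinase gene, was called higher at 1 h (0.56 ± 0.11), lower at 2 h (−0.46 ± 0.37) and higher again at 4 h (1.45 ± 0.03). Those that turned downward include Slbp, which binds histone mRNA, from 0.25 ± 0.23 at 1 h to −1.26 ± 0.14. Hgf, hepatocyte growth factor, went from 0.55 ± 0.16 to −0.65 ± 0.11. Rrad, a small GTPase, went from 0.64 at 2 h to −0.58 ± 0.19. These genes were picked after their values were seen.

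Zeros touched known LPS targets unevenly over time. Acod1 and Ccl2 were at 0 on all 6 arrays at 4 h and at least 2-fold higher and called at 2 h and at 1 h, and Ccl3 was so at 1 h. In reverse, Ccl17 and Urah were at 0 on all 6 arrays at 1 h and called at least 2-fold higher at 4 h. No gene was at 0 at 4 h after a call at least 2-fold lower.

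Probes with no gene listed also responded. Of 1987 such probes with values, 543 passed (27.3%, against 29.3% of probes with a gene), 242 higher and 301 lower. At least 2-fold changes numbered 46 higher and 22 lower, with log2 ratios from −3.21 to 2.94.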
